A study of Mus musculus with 22 samples.

Results

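Neurexins, neuroligins, NCAM and the LAR-type receptor phosphatases are cell adhesion proteins that hold the presynaptic and postsynaptic sides of a synapse together. The genes described here are Nrxn2, Nrxn3, Nlgn1, Nlgn2, Nlgn3, Ncam1, Ptprd, Ptprs and Ptprf, taken by name. All probesets whose only platform gene symbol was one of these 9 names were used. They came to 341 of the 1190406 probesets with values, and the 9 genes are among 16016 genes tested.

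Each array held total RNA from the whole brain of 1 mouse, an adult male that was naive, from the inbred strain DBA/2J (D2, 12 arrays) or C57BL/6J (B6, 10 arrays). Neither strain carried a transgene or received a treatment per the labels, and no age beyond adult is given. The array was the Affymetrix Mouse Exon 1.0 ST, in which several probesets report on the different exons of each gene, and differences in splicing between the strains are the stated subject of the study. Values are log2 expression values made by the authors with RMA, where a difference of 1 is a 2-fold change. An array has no read depth, and the number of arrays limits the precision.

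Neurexins sit on the presynaptic membrane and bind neuroligins across the cleft. Each neurexin gene has alternative promoters for long alpha and short beta forms, and its transcripts are spliced in many combinations that change which partners bind. The LAR-type phosphatases are presynaptic as well and are likewise spliced at small exons that set their choice of partner, while NCAM transcripts are spliced into membrane-spanning and lipid-anchored forms. For such genes a count of total transcript leaves out much of what differs between cells, and single probesets are of interest.

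Markers of neurons were bright in both strains. Over 7 pan-neuronal genes the mean level of an array ran from 8.16 to 8.72 in D2 and from 8.40 to 8.81 in B6. The liver genes Alb and Apob, for a tissue that should be absent, averaged 2.16 to 2.90 in D2 and 2.10 to 2.54 in B6. Of 52 listed markers of neurons, glia, vessels, choroid plexus and pituitary that could be measured, 14 were called (26.9%, against 10.8% of all genes tested), 1 higher and 13 lower in D2. Lower in D2 were 3 of 5 markers of choroid plexus and ependyma, 3 of 7 of astrocytes and 2 of 3 of endothelium. So were 2 of 6 of oligodendrocytes and 1 each of the pan-neuronal (Map2, -0.38), cerebellar (Cbln3, -0.40) and microglial (C1qb, -0.90) markers. The 1 higher marker was Gja1 of astrocytes (0.28). No marker of glutamatergic or GABAergic neurons was called. D2 arrays 13, 14 and 19 correlated least with their own strain over all gene values (median r 0.969 to 0.970, against 0.973 to 0.980 on the other arrays), and the pituitary gene Gh reached 10.34 on a D2 array and 8.45 on a B6 array. The median of all probesets of an array ran from 1.45 to 1.51 in D2 and from 1.41 to 1.47 in B6. The median of all gene values of an array went the other way, at 4.58 on average in D2 and 4.68 in B6, a difference of -0.099. The part of these shifts and of the markers in the results below was not tested beyond 3 kinds of fit: without those 3 arrays, with the median of all probesets as a covariate (called the array median below), and with each array's gene values centred on their own median. The last of these raises every gene difference by 0.099. Because the array median ran higher in D2, the covariate is partly confounded with strain. A call lost with it cannot be assigned to the shift or to the strain. In whole brain, fewer cells of a type and less RNA per cell cannot be told apart.

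Dim probesets were left out, with the filter level set at a 22-array mean of 1.44, which 1 in 2 probesets of the table do not reach. This left 336 of the 341 probesets. The other 5, 1 each of Nrxn2, Nlgn1, Nlgn2, Ptprd and Ptprs, averaged below the filter level in both strains. A gene's value was the median of its kept probesets on each array, and these numbered from 15 for Nlgn3 to 80 for Ptprd, against a median of 12 over all genes tested.

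At the level of whole genes no difference between the strains passed the test. Of the 9 genes, 0 were called by limma at an adjusted p under 0.05, where 10.8% of all genes tested were (2.57% higher and 8.26% lower in D2). At an unadjusted p under 0.05 there were 2, Nrxn2 and Ptprf, or 22.2% of the 9 against 25.3% of all genes. The D2 and B6 values overlapped for all 9 genes, where 1.18% of all genes tested had none. The median difference, D2 minus B6, was 0.044 over the 9 genes and -0.053 over all genes tested.

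Of the neurexins, Nrxn2 had gene values from 6.22 to 6.67 in D2 (median 6.50) and from 6.39 to 6.82 in B6 (median 6.75). The lowest 4 B6 arrays lay within the D2 range and the others above every D2 array. The difference was -0.16 ± 0.075 (SE; 95% interval -0.31 to -0.0050; limma adjusted p = 0.182), and 11 of 12 D2 arrays lay below the B6 mean. Of its 47 kept probesets, 37 had a lower mean level in D2 and 10 a higher one. Nrxn3 ran from 7.54 to 7.99 in D2 (median 7.76) and from 7.55 to 7.98 in B6 (median 7.81), so the ranges were nearly the same. Its difference was -0.040 ± 0.069 (SE; 95% interval -0.18 to 0.10; adjusted p = 0.76). The mean level went the other way, higher in D2, for 22 of its 33 kept probesets.

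The neuroligins are postsynaptic. Nlgn1 is found mainly at excitatory synapses, Nlgn2 at inhibitory ones and Nlgn3 at both. Nlgn1 varied most between mice of the 9 genes, with values from 6.03 to 6.98 in D2 (median 6.56) and from 5.88 to 6.80 in B6 (median 6.44). The difference of 0.14 ± 0.12 (SE; 95% interval -0.10 to 0.37; adjusted p = 0.486) was smaller than the SD within either strain (0.31 in D2 and 0.24 in B6). Higher mean levels in D2 were found for 16 of its 21 kept probesets. Nlgn2 ran from 6.60 to 7.10 in D2 (median 6.80) and from 6.74 to 7.17 in B6 (median 6.99), with a difference of -0.14 ± 0.073 (SE; adjusted p = 0.229). Its 17 kept probesets were split, with 8 lower and 9 higher in D2. Nlgn3 ran from 6.83 to 7.71 in D2 (median 7.52) and from 6.92 to 7.55 in B6 (median 7.36). It differed by 0.14 ± 0.091 (SE; adjusted p = 0.346), and 13 of its 15 kept probesets were higher in D2. Probesets of one gene share the same RNA and are not independent of each other.

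Ncam1 encodes the neural cell adhesion molecule, an immunoglobulin-type protein of neurons and glia that carries polysialic acid. Its gene value ran from 7.23 to 7.74 in D2 (median 7.51) and from 7.26 to 7.62 in B6 (median 7.41). All B6 arrays lay inside the D2 range, and the difference was 0.074 ± 0.068 (SE; 95% interval -0.065 to 0.21; adjusted p = 0.525). Among its 41 kept probesets, 29 were higher and 12 lower in D2.

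Of the LAR-type phosphatases, Ptprf, which encodes LAR itself, came closest to a call. Its values ran from 5.53 to 6.16 in D2 (median 5.88) and from 5.36 to 5.96 in B6 (median 5.67). The ranges overlapped, and 11 of 12 D2 arrays lay above the B6 mean. A higher mean level in D2 was found for 39 of its 41 kept probesets, which are not independent of each other. The difference was 0.25 ± 0.087 (SE; 95% interval 0.068 to 0.42), a 1.19-fold higher value in D2, with a limma adjusted p of 0.0678. It was called with gene values centred within each array (0.35, adjusted p = 0.0143), with the filter at the 75th percentile (0.26, adjusted p = 0.0303) and with the mean over probesets (0.27, adjusted p = 0.00838). No other alternative fit called it. These included the fits without a filter, with the array median as a covariate and without D2 arrays 13, 14 and 19.

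Ptprd encodes a phosphatase that binds the IL1RAPL1 and SLITRK proteins. Its gene value spread less in B6, from 7.52 to 7.66 (SD 0.045, n = 10), than in D2, from 7.19 to 7.67 (SD 0.15, n = 12), and this difference in spread was not tested. The means differed by -0.063 ± 0.065 (SE; adjusted p = 0.58). Its 80 kept probesets went both ways, with 35 lower and 45 higher in D2. Ptprs, whose product also binds heparan sulfate proteoglycans, ran from 7.63 to 8.10 in D2 (median 7.99) and from 7.62 to 8.03 in B6 (median 7.92). Its difference was 0.044 ± 0.071 (SE; 95% interval -0.10 to 0.19; adjusted p = 0.738). Among its 41 kept probesets, 25 were higher and 16 lower in D2.

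**Figure D1:**
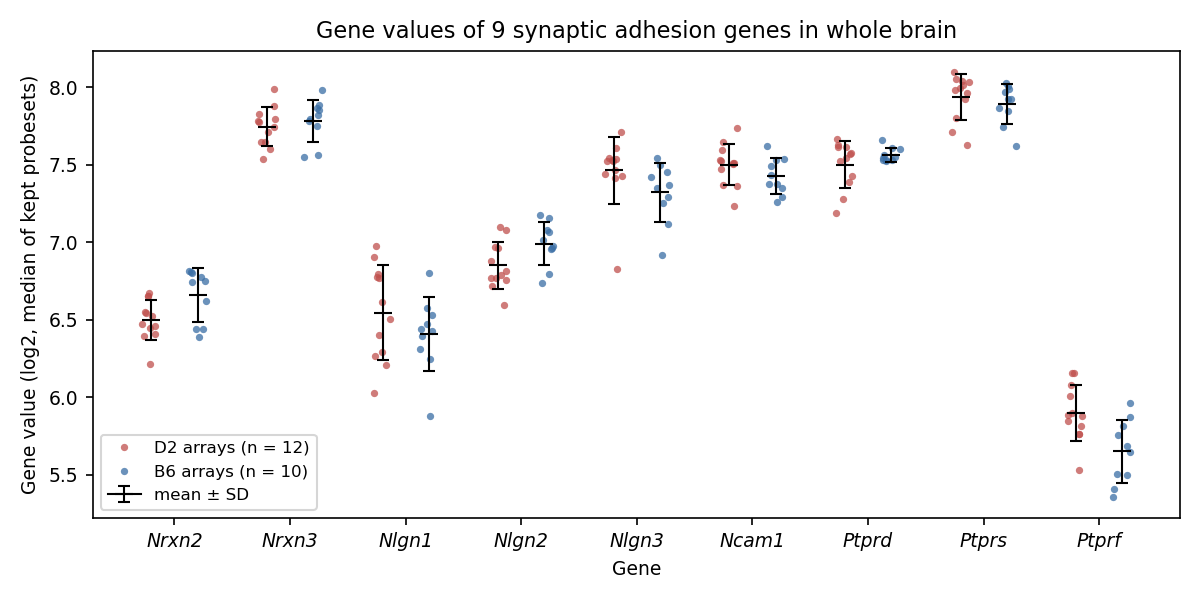
Gene values (log2, vertical axis) of the 9 genes on each array, D2 (12 arrays) left of B6 (10 arrays) for each gene; black bars are the mean ± SD. The strains overlap for every gene, Ptprf has the largest difference (0.25) and Nlgn1 spreads most within a strain.

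Single probesets gave another picture. To set each probeset against its gene, the gene's value was subtracted from its log2 level array by array. In this splicing index a change shared by the whole gene drops out. An index was called at a limma adjusted p under 0.05 and a difference of at least 0.5. Of the 336 kept probesets 7 were called, 2 higher and 5 lower in D2. That is 2.08%, against 1.66% of the 236114 probesets of all genes tested (0.894% higher and 0.77% lower in D2), so the share lay near the background. They fell in 5 genes: 3 in Nrxn2 and 1 each in Nlgn1, Nlgn2, Ncam1 and Ptprd. Among all genes tested, 13.9% had at least 1 such call, and among the 6173 genes with 15 or more kept probesets 20.1% had. Of the 7, 6 also had a called difference of their own level in the same direction.

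Most probesets of the 9 genes moved with their gene. The index difference was under 0.25 in size for 292 of the 336 (86.9%), against 76.5% over all genes tested, and its median size was 0.098 against 0.128. Probesets were not matched for brightness here, and its part in these smaller sizes was not tested. The positions of these probesets along their genes, and whether D2 sequence differs from the probes there, were not analysed here. An index call is therefore a difference of signal at 1 probeset, and its relation to splicing was not tested.

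**Figure D2:**
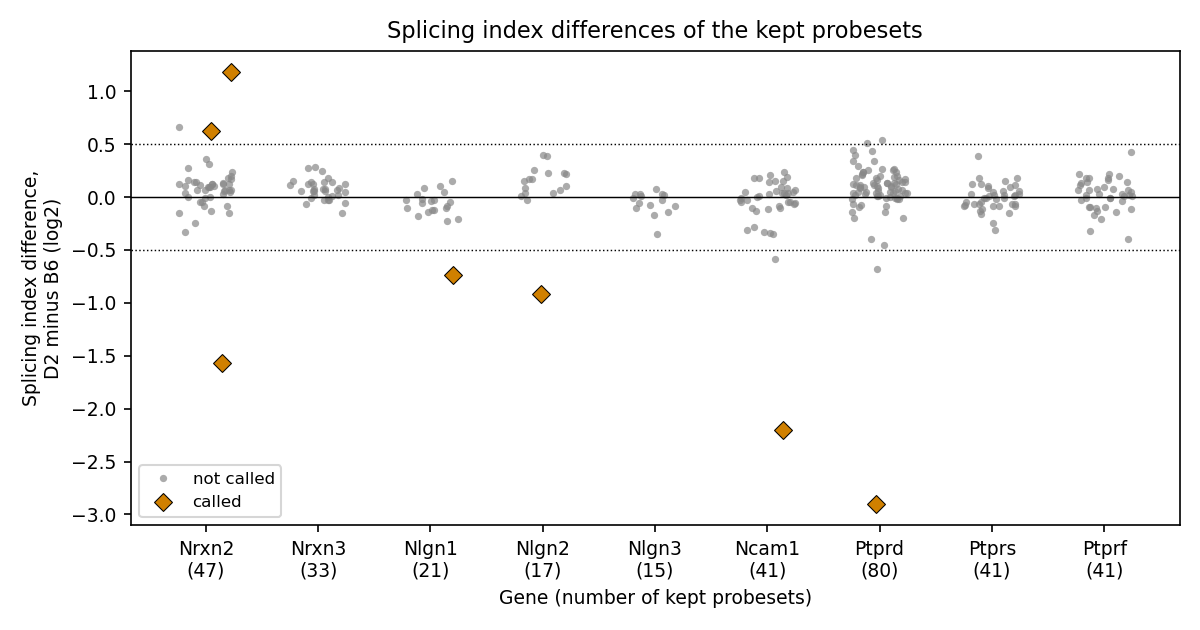
Splicing index difference, D2 minus B6 (log2, vertical axis), of every kept probeset of the 9 genes, with the number of probesets under each name. The dotted lines mark a difference of 0.5 in size, diamonds are the 7 called probesets, and the lowest is the Ptprd probeset at -2.90.

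The largest difference was in Ptprd. Probeset 4444033 had levels from 5.83 to 7.26 in D2 (median 6.80) and from 9.59 to 9.93 in B6 (median 9.66). Every D2 array lay far below every B6 array, yet all stayed well above the filter level of 1.44. The level was 7.79-fold lower in D2 (difference -2.96 ± 0.14, SE; limma adjusted p = 3.1e-14). The index was -0.77 ± 0.37 in D2 (SD, n = 12) and 2.13 ± 0.12 in B6 (SD, n = 10), a difference of -2.90 ± 0.12 (SE; limma adjusted p = 8.7e-14). In B6 this probeset read above its gene's median on every array, and in D2 below it. The index difference was -2.92 on the arrays with file letter A and -2.81 on the 4 with letter B, a letter in the array file names that both strains share.

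Other Ptprd probesets moved the opposite way by less. Probesets 4387750, 5102757, 5111662 and 5299566 had index differences of 0.44, 0.44, 0.40 and 0.34, each with an adjusted p under 0.05 but below the size needed for a call. The index of 5111662 ran from 0.97 to 1.43 in D2 and from 0.47 to 0.97 in B6, with every D2 array above every B6 array by a narrow margin. The levels of 4387750 (0.37 higher in D2, adjusted p = 0.0172) and 5102757 (0.38 higher, adjusted p = 0.0232) were called on their own, and that of 5034929 was lower in D2 by a called difference of -0.46 (adjusted p = 0.0217). These probesets were singled out after their values were seen.

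In Ncam1, probeset 4400195 had levels from 0.39 to 2.89 in D2 (median 1.83) and from 2.63 to 4.47 in B6 (median 3.90). The groups overlapped only where 2 D2 arrays lay above the lowest B6 array, and 5 of 12 D2 arrays were below the filter level. The level difference was -2.13 ± 0.29 (SE; limma adjusted p = 1.9e-05) and the index difference -2.21 ± 0.28 (SE; limma adjusted p = 2.1e-05). With D2 arrays this dim, the size is a poor measure of the fall. Compression of folds among dim probesets was not tested. The other 40 kept probesets of Ncam1 were not called.

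Nrxn2 held 3 called probesets, which went in both directions. Probeset 5574680 ran from 5.21 to 6.39 in D2 (median 6.08) and from 7.39 to 7.89 in B6 (median 7.65), with no overlap. Its level was 3.30-fold lower in D2, and its mean index was lower by 1.57 ± 0.12 (SE; limma adjusted p = 3.5e-09). The index lay below the B6 range on all 12 D2 arrays. Thus where B6 read about 1 log2 unit above the gene's median (1.01 ± 0.081, SD, n = 10), D2 read below it (-0.55 ± 0.36, SD, n = 12).

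The other called Nrxn2 probesets were higher in D2. Probeset 4358681 was dim, from 1.76 to 3.55 in D2 (median 2.96) and from 1.13 to 2.47 in B6 (median 1.85), and 9 of 12 D2 arrays lay above the B6 range. Since 2 B6 arrays were below the filter level, the size of its difference is uncertain too, and compression among dim probesets was not tested. Its index rose by 1.18 ± 0.23 (SE; limma adjusted p = 0.00498), but was not called with the array median as a covariate (1.32, adjusted p = 0.0751). Probeset 5291789 ran from 6.10 to 7.75 in D2 (median 7.04) and from 6.15 to 7.07 in B6 (median 6.63). Its index rose by 0.62 ± 0.13 (SE; limma adjusted p = 0.0101) with 10 of 12 D2 arrays above the B6 range, while its own level was not called (0.46, adjusted p = 0.103). That level was called without D2 arrays 13, 14 and 19 (0.61, adjusted p = 0.0133) and with the array median as a covariate (0.86, adjusted p = 0.0209), which gave an index difference of 1.00. On the 4 letter B arrays alone its index difference was 0.16, against 0.72 on the letter A arrays.

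In Nlgn2, probeset 4999047 ran from 5.63 to 6.53 in D2 (median 6.28) and from 6.95 to 7.54 in B6 (median 7.15). The strains did not overlap, either in level or in index. The level was 2.08-fold lower in D2 (-1.05 ± 0.13, SE; limma adjusted p = 2.5e-06), and the index fell by 0.91 ± 0.12 (SE; limma adjusted p = 5.5e-05). In Nlgn1, probeset 4445614 ran from 4.46 to 5.54 in D2 (median 4.77) and from 4.65 to 5.96 in B6 (median 5.54). The levels overlapped, with 3 D2 arrays below the B6 range, and the level difference of -0.60 (adjusted p = 0.0299) was not called without D2 arrays 13, 14 and 19 (-0.53, adjusted p = 0.118). The index, however, lay below that range on 9 of 12 D2 arrays and fell by 0.74 ± 0.15 (SE; limma adjusted p = 0.00832). With the array median as a covariate it was not called (-0.60, adjusted p = 0.247).

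**Figure D3:**
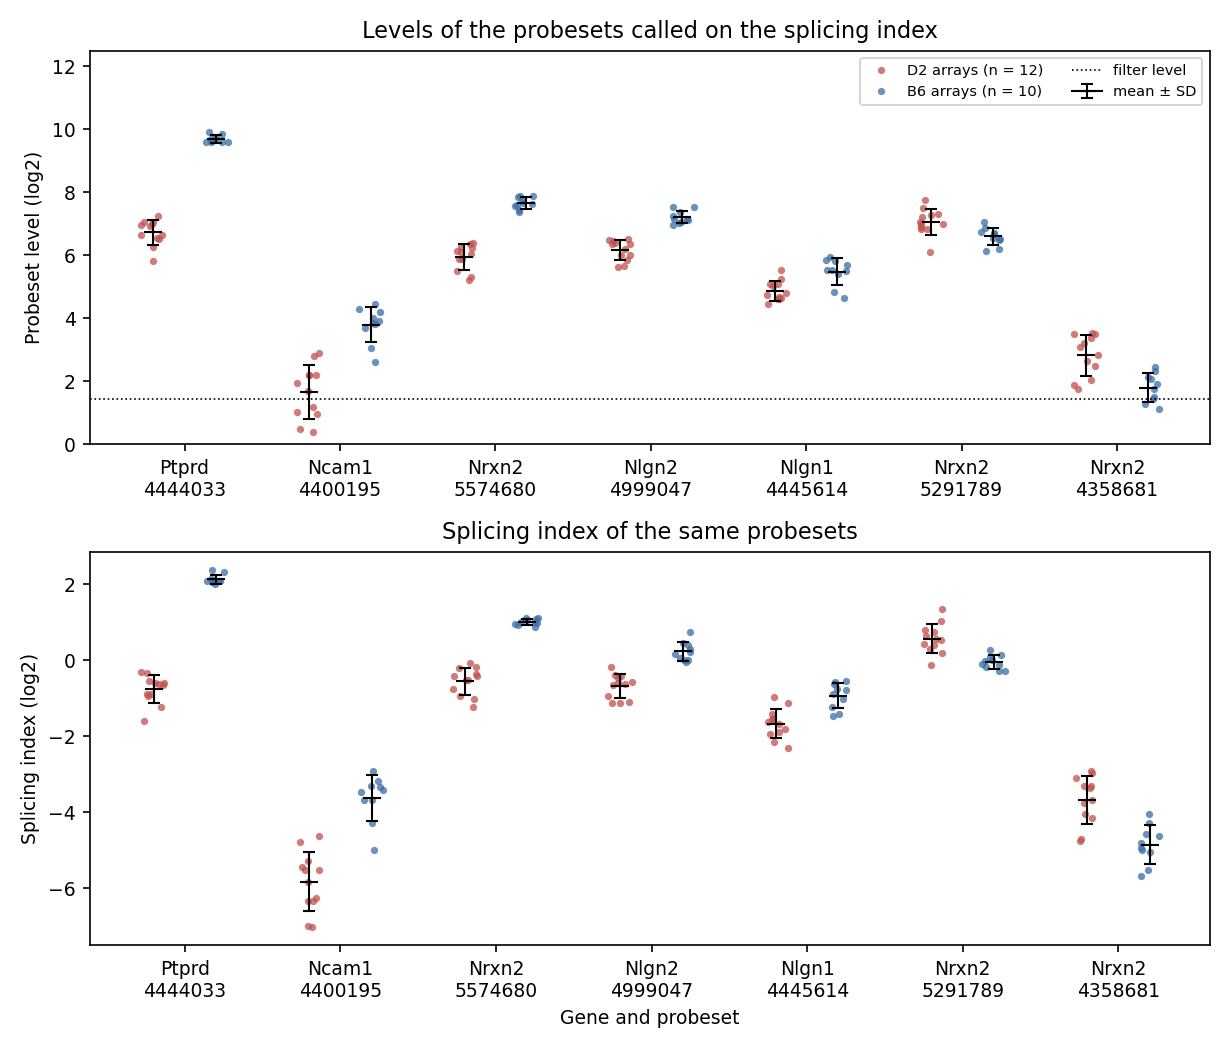
Level (top, log2) and splicing index (bottom, log2) on each array of the 7 probesets called on the index, D2 (12 arrays) left of B6 (10 arrays); black bars are the mean ± SD and the dotted line is the filter level of 1.44. The levels of Ptprd 4444033, Nrxn2 5574680 and Nlgn2 4999047 do not overlap between the strains, and Ncam1 4400195 reaches the filter level in D2.

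No index call was made in Nrxn3, Nlgn3, Ptprs or Ptprf, and their largest differences were small. In Nrxn3 it was 0.29 ± 0.17 (SE; probeset 5239747, limma adjusted p = 0.507) among 33 probesets, and in Nlgn3 -0.35 ± 0.17 (SE; 5494695, adjusted p = 0.377) among 15. In Ptprs it was 0.39 ± 0.24 (SE; 4492793, adjusted p = 0.508) among 41. In Ptprf it was 0.42 ± 0.12 (SE; 5324495, adjusted p = 0.0831), again among 41. The level of that Ptprf probeset was 1.59-fold higher in D2 and called (from 4.40 to 5.50 in D2 and from 3.65 to 4.83 in B6, adjusted p = 0.00845). Probesets 5001533 (0.43, adjusted p = 0.0129) and 5188481 (0.41, adjusted p = 0.0192) of Ptprf were also called on their level, both higher in D2.

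In level, 12 of the 336 probesets were called, 6 higher and 6 lower in D2. This is 3.57%, against 4.07% of the probesets of all genes tested (1.26% higher and 2.82% lower in D2) and 3.91% of all kept probesets. The D2 and B6 levels did not overlap for 3 of the 336 (0.893%), against 0.731% of the probesets of all genes tested, and the index did not overlap for 4 (1.19%), against 0.328%. A higher mean level in D2 was found for 208 of the 336 (61.9%), against 41.1% over all genes tested. The median level difference over the 336 was 0.042, against -0.048 over the probesets of all genes tested. With the array median as a covariate 9 probesets were called in level, 5 of them among the 12. The share of all probesets called with that covariate is not given here.

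**Figure D4:**
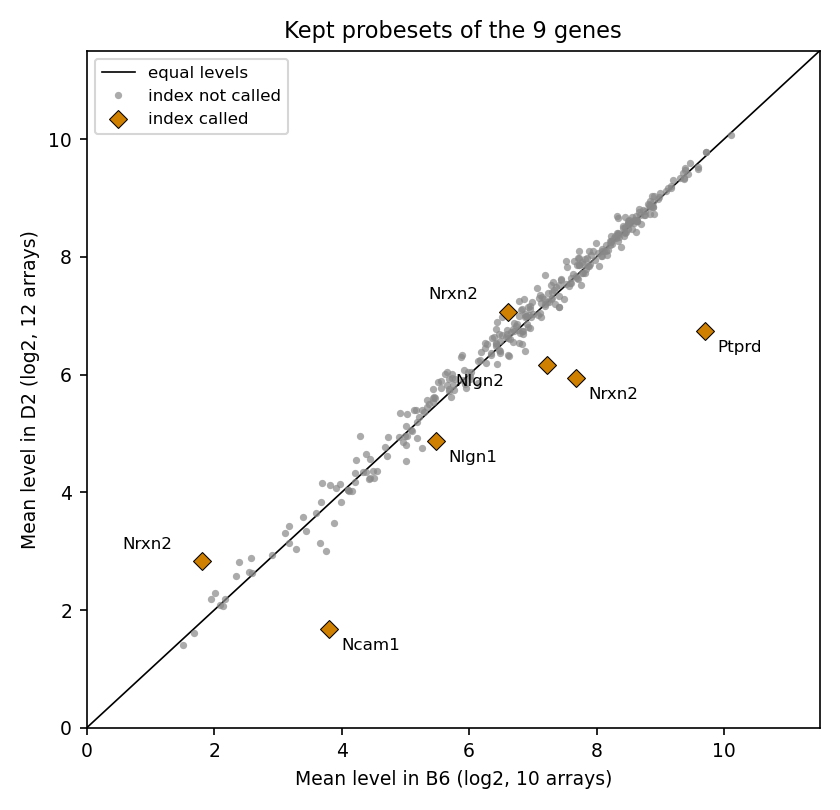
Mean level in D2 (log2, vertical axis, 12 arrays) against mean level in B6 (log2, horizontal axis, 10 arrays) of the 336 kept probesets; the line marks equal levels. Nearly all probesets lie close to the line, and the diamonds are the 7 called on the index, named by gene.

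The wider synaptic adhesion pathway was described by 92 other measured genes in 5 groups. Of these 92, 4 were called in gene value (4.35%, against 10.8% of all genes tested), all lower in D2, and 88 were not. Their median difference was -0.083. Among 20 ligands and partners of neurexins, Igsf21, an adhesion protein of inhibitory synapses, fell by 0.27 (6.18 ± 0.17 in D2 and 6.45 ± 0.15 in B6, SD; limma adjusted p = 0.027). In the same group Lrrtm1 had a larger difference that was not called (-0.34, adjusted p = 0.108). It was called with file letter as block (-0.36, adjusted p = 0.0146) and on the letter A arrays (-0.37, adjusted p = 0.0253). Neither the 20 partners of the LAR-type phosphatases nor the 15 scaffolds, regulators and proteases held a call, and their largest differences were Lrfn1 (-0.35, adjusted p = 0.121) and Apba2 (-0.24, adjusted p = 0.0802). The 12 splicing regulators, which include the RNA-binding proteins that act on neurexin exons, held none either, with Khdrbs2 at -0.31 (adjusted p = 0.218). Apba2 and Khdrbs2 were called, lower in D2, with a 75th percentile filter (adjusted p = 0.0199 and 0.028) and with the mean over probesets (0.0327 and 0.0321), and Apba2 also with file letter as block (0.0305). At an unadjusted p under 0.05, Lrfn1 and Apba2 passed and Khdrbs2 did not.

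A group of 25 genes held NCAM relatives, other immunoglobulin or contactin adhesion genes, and enzymes and signalling partners of NCAM that are not adhesion genes themselves. Of these 25, 3 fell (12%, against 10.8% of all genes tested in either direction), and 2 of the 3, St8sia4 and Gfra1, are of the last kind. St8sia4, which encodes an enzyme that adds polysialic acid to NCAM, averaged 3.92 ± 0.33 in D2 (SD, n = 12) and 4.63 ± 0.30 in B6 (SD, n = 10). It fell by 0.71 ± 0.13 (SE; limma adjusted p = 0.0004). The difference was -0.40 with the mean over probesets (adjusted p = 0.0016), and it was not called with the array median as a covariate (-0.28, adjusted p = 0.397). Cntnap2, a contactin-associated protein of the neurexin superfamily, fell by 0.29 (adjusted p = 0.0044), and Gfra1, a GDNF co-receptor that can pair with NCAM, by 0.25 (adjusted p = 0.0149). With gene values centred within each array only St8sia4 was called (-0.61), and Cntnap2 (-0.19), Gfra1 (-0.15) and Igsf21 (-0.17) were not. With the array median as a covariate none of the 4 was called, and without D2 arrays 13, 14 and 19 Gfra1 (-0.21) and Igsf21 (-0.23) were not. Igsf21 was also not called with a 75th percentile filter (-0.24). Cntn1 was not called (-0.20, adjusted p = 0.051). It was, lower in D2, with that filter, with file letter as block, on the letter A arrays and with trend and robust variances. Cntn4 (-0.25, adjusted p = 0.071) was called without a filter and with the mean over probesets, and Cadm3 with that mean alone.

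**Figure D5:**
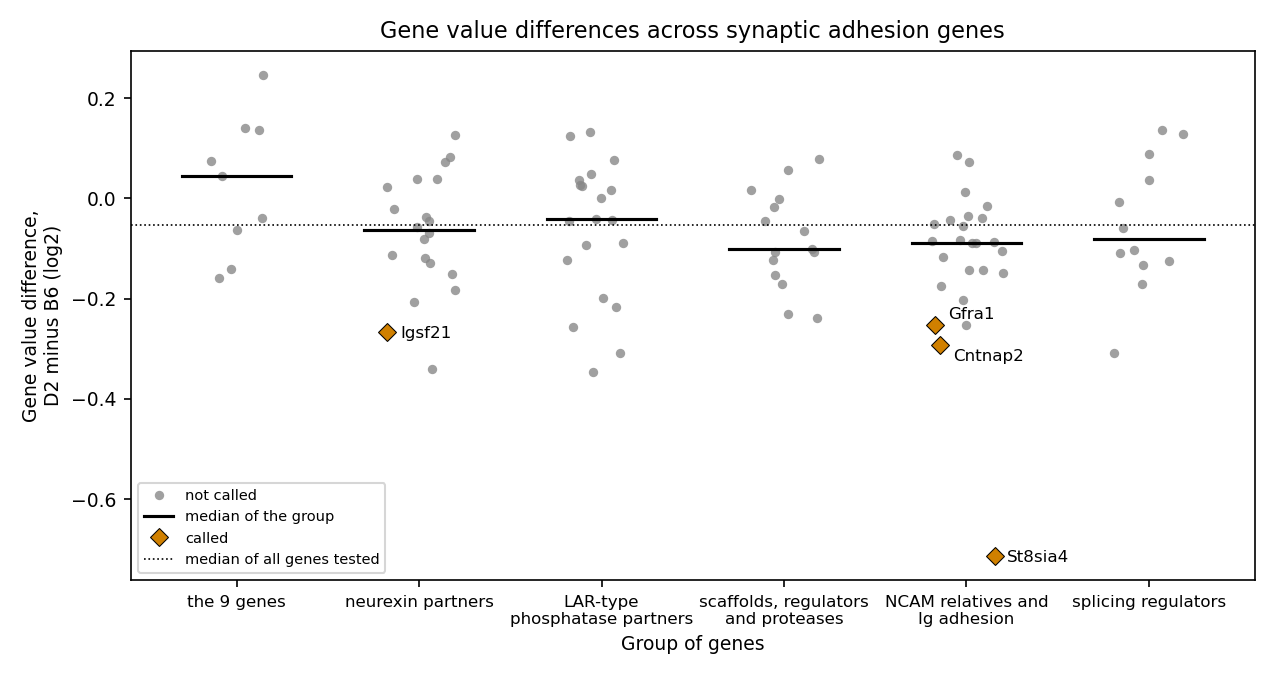
Gene value difference, D2 minus B6 (log2, vertical axis), of the 9 genes and of 92 other genes of synaptic adhesion in their groups; black bars are group medians and the dotted line is the median of all genes tested (-0.053). The 4 called genes are named and all lie below 0.

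Across arrays the 9 genes did not form 1 block. After each value was set against its strain mean, Pearson's r over the 22 arrays ran from -0.32 to 0.77 for the 36 pairs, with a median of 0.18 and 24 pairs above 0. The pair most alike was Nrxn2 and Nlgn3 (r = 0.77, Spearman's rho = 0.67), followed by Nrxn3 and Nlgn2 (r = 0.62, rho = 0.56). Ptprf was at most 0.35 with any other member, and Nlgn1 and Ptprd at most 0.31, with each other. Over all genes, the ones most like a member were Arhgef17 for Nrxn2 (r = 0.89), Lingo1 for Nrxn3 (0.87), Tbp for Nlgn1 (0.79), Bahd1 for Nlgn2 (0.77) and Ids for Nlgn3 (0.91). They were Cep350 for Ncam1 (0.78), Tacc1 for Ptprd (0.80), Rasgef1a for Ptprs (0.86) and Napg for Ptprf (0.91). These values describe the 22 arrays, which share array-wide shifts, and each is the highest among all 16016 genes.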

How the data were processed

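The authors deposited 1 log2 value per probeset and array. The submitters' processing notes name RMA, the package affy 1.12.2 and R 2.6.0. RMA options, probeset definition and genome build are not given in the sources used here. Per the labels, 24 arrays were hybridised and 2 were left out for their scanner. Of 1201338 probesets, 10932 were empty. Symbols came from GEO's platform annotation, updated through RefSeq names (GRCm38.p6) where that gave 1 symbol not already on the platform.

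D2 minus B6 was fitted to the log2 values with limma 3.58.1 under R 4.3.3 (lmFit and eBayes, two-sided, Benjamini-Hochberg over all features). Genes needed 3 kept probesets (16016 genes, 595203 kept probesets). The functions were tested on simulated data. Figures used matplotlib 3.10.9.

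The members and gene lists were chosen with earlier results of these data known. Named were all members, their probesets called on the index (the one with the largest difference where none was), up to 4 called genes per list (or the one with the largest difference) and the gene most correlated with each member. Alternatives concerned the filter, scaling, gene summary, file letter, arrays and variance model.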

Additional observations from a re-analysis of the deposited data

Results flagged for a closer look

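Of 54 sets of B6 values, 1 held an array that stood apart by Dixon's test at 95%, which chance does for about 1 set in 20. The level of Ptprd probeset 5034929 was 6.31 on B6 array 5 and 6.82 on the B6 array nearest to it, with a B6 median of 6.88. Array 5 had file letter B and the lowest array median of the B6 group (1.41). D2 values were not checked in this way, since the critical values used here end at 10 arrays.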

How the results depend on the processing

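Index calls of Ptprd 4444033 and Nrxn2 5574680 held under every alternative run but the 4 letter B arrays alone. Those of Nlgn2 4999047 and Nrxn2 5291789 did so too except at a difference of at least 1, and Ncam1 4400195 and Nrxn2 4358681 did not pass the stricter filter on dim probesets. On letter B alone (2 D2 and 2 B6) 0 probesets were called in level, 0 on the index and 0 of the list genes, with all 7 index differences in the same direction. Of the 9 genes, 1 (Ptprf) was called with a 75th percentile filter, with gene values centred on their median within each array and with the mean over probesets. In level, 19 probesets were called with that filter and 22 with a trend and robust variances. Of the 12 level calls, 5 remained with the array median as covariate, 8 without D2 arrays 13, 14 and 19 and 9 on the letter A arrays. On the index, 11 were called by adjusted p alone and 4 at a difference of at least 1. Of the list genes, 1 was called with centring (St8sia4), 1 with the array median as covariate (Mdga2), 8 with the mean over probesets, 7 with file letter as block and 2 without D2 arrays 13, 14 and 19. The share of all features called under each alternative is not given here. A changed count is therefore not read as a result about these genes. Gene differences near 0 changed sign: Nrxn3 with centring (0.059), the covariate (0.021), the mean over probesets (0.034), letter B alone (0.035) and without those 3 arrays (0.0095), Ncam1 with the mean over probesets (-0.0060), and Ptprd with the 75th percentile filter (0.061), centring (0.036), the covariate (0.0064) and without probesets called on the index (0.042). So did Ptprs probeset 4492793 on letter B alone (-0.23) and Khdrbs2 with the covariate (0.21). The causes were not tested. No paired analysis was possible because the D2 and B6 arrays share no replicate numbers.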

Other observations

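Among the 92 other synaptic adhesion genes, 10 held an index call (10.9%, against 13.9% of all genes tested). These 2 shares were not matched for the number of probesets per gene. The calls fell on 11 of the 1977 kept probesets of the 92 genes, against 1.66% of the probesets of all genes tested. Of the 11, 5 were lower and 6 higher in D2. Overlap between the strains was counted among these 11 alone, so it has no like share beside the 0.328% of all genes tested. The index of 1 of them did not overlap between the strains: probeset 4398585 of Nrcam, an adhesion protein of nodes of Ranvier and growing axons, had an index from 1.83 to 2.20 in D2 and from 1.19 to 1.57 in B6. Its difference was 0.56 ± 0.070 (SE; limma adjusted p = 1.7e-05), and its level was 9.84 ± 0.15 in D2 (SD, n = 12) and 9.37 ± 0.15 in B6 (SD, n = 10). A probeset of Gpc4, a glypican that binds LAR-type phosphatases, rose by 0.80 on the index (adjusted p = 0.0093), with 0.94 on the letter A arrays and 0.17 on the 4 letter B arrays. Chl1, a relative of L1, had the lowest index difference (-1.36, adjusted p = 0.0148). Its probeset averaged 0.86 in D2, below the filter level of 1.44, and 2.26 in B6. It passed the filter only through B6, where it was higher, so its adjusted p is no independent support. Among splicing regulators, a probeset of Rbfox1 fell by 0.92 (adjusted p = 0.0056) and one of Ptbp2 rose by 0.60 (adjusted p = 0.0241), and neither was called with the array median as a covariate. Cntn1, which encodes contactin 1, held 1 probeset lower (-0.78) and 1 higher (0.56) in D2. These genes were singled out after their values were seen.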
